A study of Homo sapiens with 4 samples.

Results

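The genes described here encode DNA polymerases and DNA repair proteins, and were chosen by gene symbol alone: the POL genes that name DNA polymerase subunits, the RAD, FANC, XRCC, ERCC, MSH, MLH, BRCA, PARP and LIG series, and ATM, ATR, PRKDC and TP53BP1. Of 97 protein-coding genes with such a symbol in GENCODE release 29, 55 had at least 1 peak in the authors' table of m6A-seq peaks. They held 236 of its 27678 peaks and are 55 of its 7267 gene symbols. The other 42 genes had no listed peak. The cells were human breast cancer cells, named MDA-MB-231 in the cell line field but MDA-MB-231Br, a variant of that line that spreads to the brain, in the growth protocol and series design. The extraction text mentions embryos, which matches neither name. Poly(A) RNA was purified and sonicated, fragments carrying N6-methyladenosine (m6A) were pulled down with an antibody (the IP), and libraries were made from the IP and from input RNA. All libraries came from the same untreated line, 2 of input and 2 of IP per the labels, and the study contained no second condition.

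The table held 1 IP count and 1 input count for each peak, with no replicate number, so these counts were read as the authors' pooled reads. No peak therefore had a replicate value and no test across libraries was possible. Brackets after a ratio give its exact 95% interval, which covers counting error only, and PCR reads are not independent molecules. The sizes of the libraries were not used, so equal IP and input reads are no zero point of enrichment, and a ratio has meaning here only beside those of other listed peaks. Every listed window had at least 5 IP reads. A gene with no listed peak may carry no m6A, may be weakly expressed or may lie below the authors' thresholds, and these cannot be told apart. Of the markers of a mesenchymal or basal breast cancer line, VIM, CD44, EGFR, AXL and CAV1 had 4 to 22 listed peaks. KRT18, a keratin of simple epithelia, had 0. ESR1, PGR, ERBB2 and CDH1, which such a line is known to express weakly, also had 0 listed peaks.

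DNA polymerases alpha, delta and epsilon copy the genome, and smaller polymerases fill repair gaps or copy past lesions. Base excision, nucleotide excision and mismatch repair remove damaged or mispaired bases, whereas homologous recombination and end joining rejoin broken DNA and the Fanconi anaemia proteins remove crosslinks between strands. m6A is written on mRNA by the METTL3-METTL14 complex, most often at sites around the letters GGAC, in long internal exons and near stop codons. Anti-m6A antibodies also bind m6Am, the modified base next to the cap of many mRNAs, and signal at the first bases of a transcript cannot be divided between m6A and m6Am in these data.

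The ratio of a peak varied over a wide range in these genes, and the sequences below show the extremes. The first set holds the coding peaks with the highest IP-to-input ratios that lay clear of the start codon, of UTRs and of other genes, in POLE4 (chr2:74958802-74959409, plus strand), XRCC1 (chr19:43552215-43552835, minus strand) and POLE (chr12:132649426-132649726, minus strand). Coordinates are those of the deposited table on GRCh38, the letters are the spliced transcript from GENCODE release 29 in the 5′ to 3′ direction, and capitals mark the motif GGAC, which was searched on the transcribed strand.
POLE4: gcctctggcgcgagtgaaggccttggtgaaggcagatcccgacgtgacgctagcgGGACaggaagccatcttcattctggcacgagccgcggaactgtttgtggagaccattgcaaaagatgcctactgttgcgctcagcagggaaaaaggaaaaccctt
XRCC1: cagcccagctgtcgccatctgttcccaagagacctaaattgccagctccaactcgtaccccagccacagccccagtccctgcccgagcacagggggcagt
POLE: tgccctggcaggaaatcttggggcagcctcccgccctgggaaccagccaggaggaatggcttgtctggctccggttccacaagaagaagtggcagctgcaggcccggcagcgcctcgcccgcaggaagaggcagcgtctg

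The second set holds coding peaks with very low ratios, 1 per gene, in XRCC5 (chr2:216125933-216127606), XRCC6 (chr22:41636203-41636746) and RAD23B (chr9:107322021-107323921), all on the plus strand. Capitals again mark GGAC.
XRCC5: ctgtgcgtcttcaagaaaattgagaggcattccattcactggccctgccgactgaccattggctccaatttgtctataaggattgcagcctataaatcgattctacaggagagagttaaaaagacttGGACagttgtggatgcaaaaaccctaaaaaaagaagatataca
XRCC6: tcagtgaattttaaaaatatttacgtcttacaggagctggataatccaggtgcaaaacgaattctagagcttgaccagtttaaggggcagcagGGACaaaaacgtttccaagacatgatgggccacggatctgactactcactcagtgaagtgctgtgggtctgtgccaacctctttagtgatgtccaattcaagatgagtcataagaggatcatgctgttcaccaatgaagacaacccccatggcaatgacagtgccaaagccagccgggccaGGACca
RAD23B: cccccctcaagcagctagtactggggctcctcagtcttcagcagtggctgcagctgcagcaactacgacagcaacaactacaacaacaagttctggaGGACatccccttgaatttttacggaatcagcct

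In the first set the letters GGAC occurred 1 time in POLE4 and 0 times in XRCC1 and POLE. In the second set they occurred 1 time in XRCC5, 2 times in XRCC6 and 1 time in RAD23B. Presence of GGAC thus did not follow the ratio across these 6 peaks, which were picked as extremes and are 100 to 280 nt long. The motif DRACH (A, G or T, then A or G, then AC, then A, C or T) occurred 4, 1 and 1 times in the first set. In the second set it occurred 4, 7 and 1 times. Over all placed member peaks GGAC occurred in 74.0% of those above input and in 58.4% of the others. Highly enriched peaks also lay in 5′ UTRs, where the table resolves a window and not a base. The 24-nt stretches below lie around 1 of 4 GGAC in the first-exon peak of ERCC1 (chr19:45424108-45424357) and the only GGAC in that of ERCC6L2 (chr9:95875701-95876030). In ERCC6L2 a G follows the GGAC, so this site is no DRACH.
ERCC1: agctccgggaGGACaacacggggc
ERCC6L2: ccgccgctccGGACgtcgccctcc

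A listed peak was found in 56.7% of the repair and polymerase genes (46.3% to 66.7%), against 36.1% of all 19969 protein-coding genes. Members with a peak had longer annotated transcripts than members without one, with medians of 4092 and 2980 nt. Over all protein-coding genes these medians were 3771.5 and 2266 nt, so peaks were listed more often in genes with long transcripts. Among genes whose transcript was at least as long as the median of 2717 nt, 42 of 69 members had a peak, or 60.9% (48.4% to 72.4%), against 49.5% of all genes of that length. This interval takes in the share of all genes, and the counts do not set the members apart from other genes with long transcripts. Of the 55 genes, 43 had more than 1 peak and 12 had 1. Overlapping windows were common, and the 236 peaks fell to 134 when overlapping ones were merged.

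Counted over peaks, the members had fewer IP-rich windows than the whole table, but counted over genes they were near it. IP reads outnumbered input reads in 75 of 236 peaks, or 31.8% (25.9% to 38.1%), against 40.5% of all listed peaks. With overlapping member peaks merged the member share was 37.3%, which is nearer to 40.5%, though the whole table was not merged for this share. In 23 peaks the IP count was at least 4 times the input count, or 9.75% (6.28% to 14.3%), against 17.2% in the whole table. Peaks with 0 input reads, 6 in members and 545 in all, count in this class whatever their IP reads. At the other end, 89 peaks, or 37.7% (31.5% to 44.2%), had at least 4 input reads per IP read, against 30.3%. The median read ratio was 0.542 in members and 0.640 in all peaks, and on the scale log2((IP + 1)/(input + 1)) the medians were -0.87 (-1.48 to -0.53) and -0.63, an interval that holds the value of the whole table. With 1 value per gene, the median over its peaks, the medians were -0.27 in members and -0.22 in all genes, and 39 of the 55 genes, or 70.9%, had a peak above input, against 73.8%. Genes with many peaks, such as FANCA, ERCC2 and PRKDC, thus weigh most in the counts of peaks. Peaks of 1 gene are not independent of each other, so these intervals are too narrow as a statement about genes. Counted by gene, 20 of the 55 had a peak at or over this 4-fold mark, against 43.5% of all genes with a peak. In 4 of the 20, among them FANCG, MSH5 and POLE4, the lower end of the interval was itself at least 4.

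**Figure D1:**
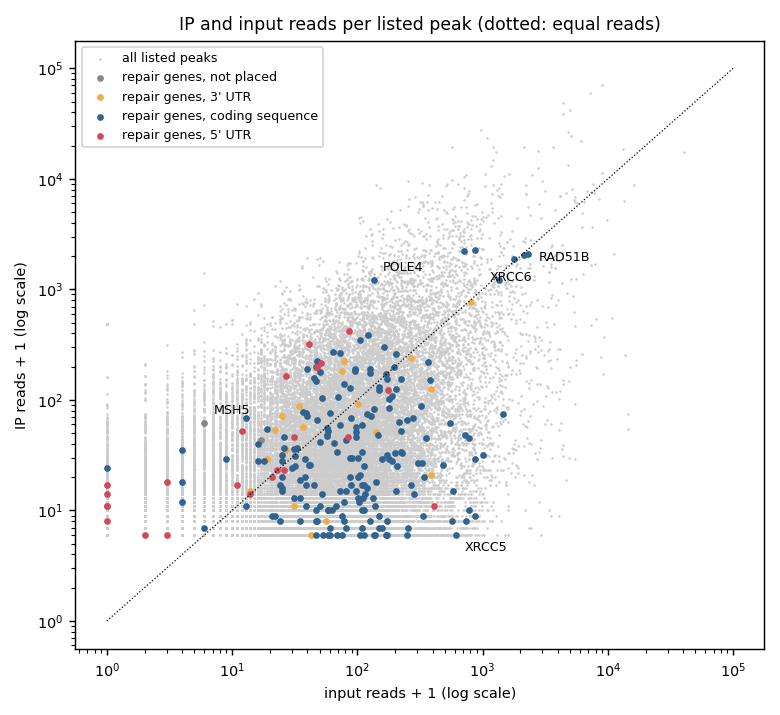
IP reads against input reads for each listed peak, both plus 1 and on log axes, with all 27678 peaks in grey and the 236 peaks of DNA repair and DNA polymerase genes coloured by the region at the peak midpoint. POLE4 and MSH5 lie above the dotted line of equal reads, XRCC5 lies far below it, and the RAD51B peaks lie close to it, with 2067 and 2088 IP reads.

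The replicative polymerases had listed peaks in 8 of 10 genes. Of their 34 peaks 13 had more IP than input reads, and their median log2 ratio was -0.51. POLE4, a small histone-fold subunit of polymerase epsilon, had 1223 IP and 135 input reads in a coding peak (ratio 9.06, 7.58 to 10.9). Its first peak, across the start codon (chr2:74958532-74958891), had 23 IP and 0 input reads. Its ratio was 7.67 with input set to a floor of 3 counts, and its exact interval began at 5.75. The ratio then dropped along the same transcript, to 175 over 126 reads (1.39, 1.10 to 1.76) and to 124 over 386 (0.321, 0.260 to 0.394) in the peak that takes in the stop codon.

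POLE, the catalytic subunit of polymerase epsilon, had 9 peaks. The highest was the coding peak printed above, with 197 IP and 46 input reads (4.28, 3.09 to 6.04), and its overlapping neighbour had 104 and 51 (2.04, 1.45 to 2.91). A further peak across the stop codon (chr12:132624263-132624792) had 225 and 77 reads (2.92, 2.25 to 3.84). Between them lay coding peaks as low as 6 IP against 60 input reads (0.1, 0.0353 to 0.231). The high ratios of POLE thus lay in the middle of the coding sequence and at its end, and no peak was listed near its start codon.

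POLD1, the catalytic subunit of polymerase delta, had its highest peaks near the start of the coding sequence, with 266 over 72 reads (3.69, 2.84 to 4.86) and 387 over 120 (3.23, 2.62 to 3.99). Its other 5 peaks had ratios of 0.306 to 0.806. The delta subunit POLD2 had 10 IP reads and no input read in its 5′ UTR and 32 over 226 reads (0.142, 0.0946 to 0.206) in its lowest coding peak. Among the 5 members whose highest ratio was lowest were POLE2, an epsilon subunit with 7 over 23 reads (0.304, 0.110 to 0.733), and POLD3, a delta subunit with 33 over 68 reads (0.485, 0.310 to 0.746). POLA1 and POLA2, the catalytic and accessory subunits of the primase-bound polymerase alpha, had 2 peaks each. POLD4 and POLE3, the smallest delta subunit and the histone-fold partner of POLE4, had no listed peak.

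A peak was listed in 1 of 5 repair polymerase genes and in 3 of 4 genes of lesion bypass. POLG, the mitochondrial polymerase, had 6 peaks with ratios of 0.0804 to 0.613 and none above input, while its accessory subunit POLG2 had none. POLB, the gap-filling polymerase of base excision repair, had 19 over 20 reads at its start codon (0.95, 0.480 to 1.88), and POLL, POLM, POLN and POLQ had no peak. Among the genes of lesion bypass, POLH, which copies ultraviolet lesions, had 52 over 21 reads in its 3′ UTR (2.48, 1.47 to 4.33). RAD18, the ubiquitin ligase that modifies PCNA, reached only 18 over 34 reads (0.529, 0.281 to 0.964). POLK had 1 peak with 10 over 12 reads, and POLI had none.

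**Figure D2:**
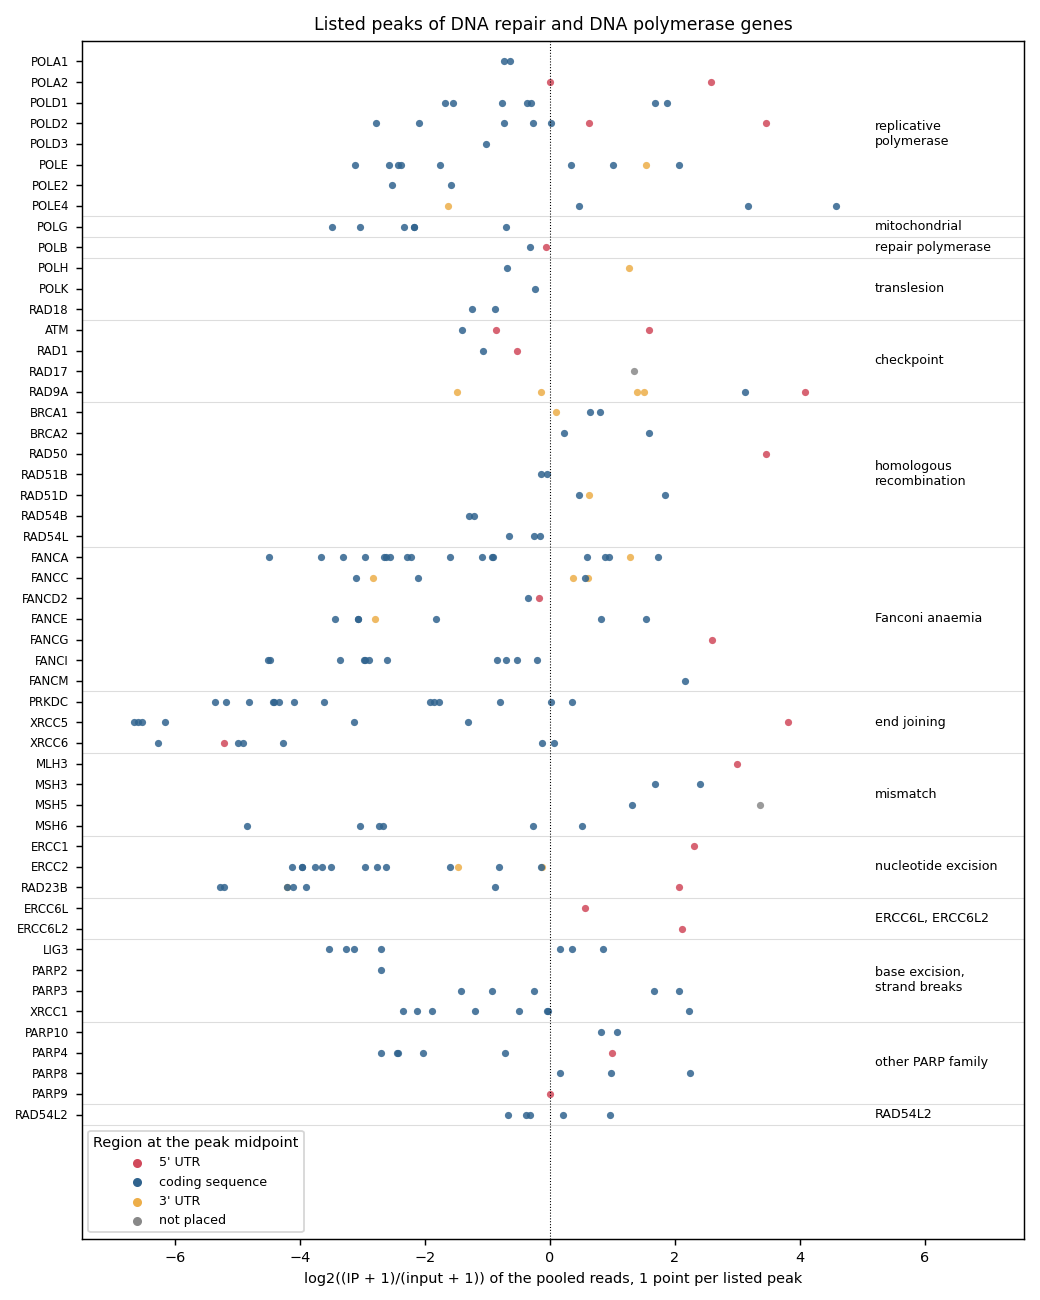
Each point is 1 listed peak of a DNA repair or DNA polymerase gene that the text names, placed by log2((IP + 1)/(input + 1)) of the pooled reads and coloured by the region at its midpoint, with genes grouped by role. Red 5′ UTR points lie mostly to the right of the dotted line of equal reads, and blue coding points mostly to its left; over all member peaks the medians were 2.04 and -1.43.

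In damage sensing, 4 of 7 genes had a peak and 6 of 12 peaks were above input. RAD9A, a subunit of the 9-1-1 checkpoint clamp, had 16 IP and 0 input reads in its first peak and 34 over 3 reads in the next, both across the start codon (ratio of the second 11.3, 3.56 to 57.7). Its stop codon peak had 88 over 33 reads (2.67, 1.77 to 4.11). RAD1, another subunit of that clamp, had 2 peaks near its start codon with ratios of 0.475 and 0.693, and RAD17, the clamp loader, had 42 over 16 reads (2.62, 1.45 to 5.00). ATM, the kinase activated by double-strand breaks, had 45 over 83 reads at its start codon (0.542, 0.369 to 0.789) and 16 over 44 across its stop codon. Its 5′ UTR peak, with 5 over 1 reads, counts as above input, but its interval (0.559 to 236) does not place the ratio. ATR, RAD9B and TP53BP1 had no peak.

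In homologous recombination 8 of 14 genes had a peak, and 11 of 22 peaks were above input. RAD51D, one of the genes of this pathway, had 3 peaks, all near its stop codon. The highest, across the stop codon, had 179 over 49 reads (3.65, 2.65 to 5.12).

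BRCA1, the ligase that promotes end resection, had 3 overlapping peaks at the end of its coding sequence with 14 over 13, 27 over 15 and 27 over 17 reads, and the intervals of all 3 reached below 1. BRCA2, a mediator of strand exchange, had 11 over 3 and 6 over 5 reads, too few to place either ratio. RAD50, the ATPase of the MRE11 complex, had 10 IP reads and no input read in its 5′ UTR. RAD54B and RAD54L, translocases of this pathway, stayed below input with highest ratios of 0.400 (0.152 to 0.948) and 0.895 (0.601 to 1.33). RAD51C, RAD51AP1, RAD51AP2, RAD52, XRCC2 and XRCC3 had no listed peak.

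The Fanconi anaemia genes had 46 peaks in 7 of 11 genes, and 12 peaks were above input (median log2 ratio -1.97). FANCG, a core complex subunit, had 1 peak, in its 5′ UTR (chr9:35079676-35079775), with 163 over 26 reads (6.27, 4.13 to 9.88). FANCM, the translocase of the pathway, had 17 over 3 reads at its start codon (5.67, 1.64 to 30.2). FANCA, another core subunit, had the most peaks of all members with 18. Its 5 peaks nearest the transcript end had 181 to 351 IP reads and ratios of 1.51 to 3.34, and the other 13 had ratios of 0.0370 to 0.525. All of these 5 peaks lay over exons of ZNF276, a gene on the opposite strand, and the sources used here do not state whether reads were counted by strand, so these reads cannot be assigned to FANCA with certainty.

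FANCI and FANCD2 form the clamp that is monoubiquitinated at crosslinks. FANCI had 11 peaks and none above input, yet its ratio changed along the coding sequence, from 129 over 149 reads (0.866, 0.679 to 1.10) at the start codon to 5 over 137 (0.0365, 0.0117 to 0.0873) and back to 153 over 221 (0.692, 0.560 to 0.855) at the stop codon. That last peak overlaps an exon of POLG on the opposite strand. FANCD2 had 2 peaks near its start codon with ratios of 0.880 and 0.774. FANCE had 54 over 18 reads at its start codon (3.0, 1.73 to 5.44) and 9 over 108 at its stop codon (0.0833, 0.0371 to 0.164). FANCC, a core subunit, had 128 over 86 reads in the coding peak with most reads (1.49, 1.12 to 1.98) and 28 over 18 in its 3′ UTR (1.56, 0.831 to 2.99). FANCB, FANCF, FANCL and FANCD2OS had no listed peak.

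End joining had the lowest median log2 ratio of the role groups, at -4.30, with 4 of 28 peaks above input. These peaks came from 3 genes, and 14 of them from PRKDC. Since every listed window had at least 5 IP reads, very low ratios could be listed only where input counts were high. XRCC5, which encodes Ku80, had 13 IP and 0 input reads in the first peak at its start codon (4.33 with input set to 3 counts). The next peaks of XRCC5 had 152 over 379 (0.401, 0.330 to 0.485) and 61 over 545 (0.112, 0.0845 to 0.146). Its last 4 peaks had 5 to 8 IP reads against 571 to 872 input reads. Its lowest ratio was 0.00821 (0.00266 to 0.0193). In XRCC6, which encodes the Ku70 partner, the order differed: the peaks around the start codon were low, with 10 over 407 reads (0.0246, 0.0117 to 0.0457) in the first. Within its coding sequence 1 peak had 9 over 774 reads (0.0116, 0.00530 to 0.0222), and the next, which overlaps its end, had 1885 over 1797 (1.05, 0.983 to 1.12). A peak further on had 74 over 1446 reads (0.0512, 0.0400 to 0.0647). Over the 7 peaks of XRCC6 the input counts ran from 407 to 1797 and the IP counts from 9 to 1885, so the IP counts differed far more along the transcript.

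PRKDC, the kinase recruited by Ku, had 14 coding peaks. An overlapping pair was above input, with 170 over 168 reads (1.01, 0.813 to 1.26) and 259 over 202 (1.28, 1.06 to 1.55), and the other 12 had ratios of 0.0203 to 0.572. LIG4 and XRCC4, the ligase of the pathway and its scaffold, had no listed peak.

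**Figure D3:**
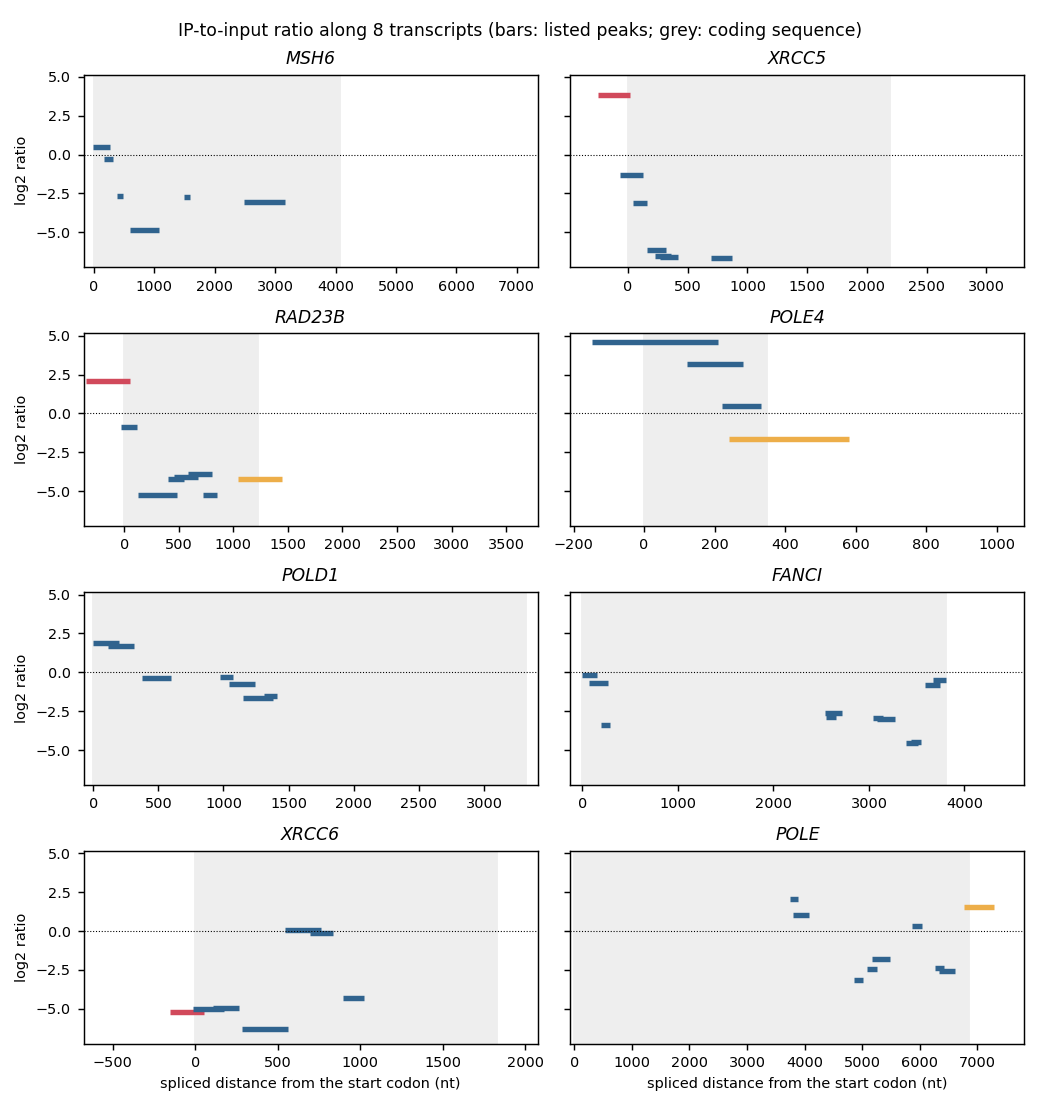
Listed peaks of 8 genes along the spliced transcript, with distance from the start codon in nt on the x axis and log2((IP + 1)/(input + 1)) on the y axis. Bars span the peaks, red for 5′ UTR, blue for coding and yellow for 3′ UTR midpoints, and grey marks the coding sequence: XRCC5, RAD23B and POLE4 were highest at their 5′ end, while XRCC6 and POLE were highest within the coding sequence.

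Mismatch repair had 8 of 15 peaks above input, in 5 of 7 genes. MSH6, the sensor of base mismatches, ran from 36 over 25 reads (1.44, 0.841 to 2.50) at the start codon to 5 over 173 (0.0289, 0.00927 to 0.0688). MSH3, the sensor of insertion-deletion loops, had 68 over 12 reads at its start codon (5.67, 3.04 to 11.5), but both of its peaks also overlapped exons of another gene. MSH5, a meiotic MutS homolog, had 61 over 5 reads, the highest ratio among member peaks with at least 20 reads and at least 1 input read (12.2, 4.95 to 38.9; chr6:31740482-31740755). Both MSH5 peaks also belong to the readthrough gene MSH5-SAPCD1, and the first could not be placed on a spliced transcript. MLH3, a MutL homolog, had 7 IP reads and no input read in its 5′ UTR, and MSH4 had no listed peak.

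In nucleotide excision repair 4 of 9 genes had a peak, and 4 of 26 peaks were above input. ERCC1, the partner of the ERCC4 nuclease, had 1 peak, in its 5′ UTR, with 423 over 85 reads (4.98, 3.93 to 6.36). RAD23B, a partner of the damage sensor XPC, had 213 over 50 reads across its start codon (4.26, 3.12 to 5.92), 58 over 107 in the next peak (0.542, 0.387 to 0.753), and ratios of 0.0239 to 0.0652 in the other 6. ERCC2, the XPD helicase of TFIIH, had 14 peaks and none above input, with ratios of 0.0481 to 0.910. ERCC3, ERCC4, ERCC5, ERCC6 and ERCC8 had no listed peak. ERCC6L2 and ERCC6L, SNF2-family relatives of ERCC6, had 1 peak each in the 5′ UTR, with 51 over 11 reads (4.64, 2.39 to 9.87) and 45 over 30 (1.5, 0.924 to 2.47).

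In single-strand break repair, XRCC1, the scaffold protein, had 224 over 47 reads in the coding peak printed above (4.77, 3.47 to 6.67), and its other 7 peaks had ratios of 0.188 to 0.982. PARP3, which is activated by strand breaks, had 268 over 63 reads in its coding sequence (4.25, 3.22 to 5.69) and 12 over 34 at its stop codon (0.353, 0.166 to 0.699). PARP2, a break sensor, had 14 over 97 reads (0.144, 0.0761 to 0.254), the lowest of the highest ratios of any member. LIG3, the ligase of this pathway, was above input in 3 of 7 peaks, with 71 over 39 reads at most (1.82, 1.22 to 2.76), and PARP1 and LIG1 had no listed peak. Among the other PARP genes, PARP8, a mono-ADP-ribosyltransferase, had 188 over 39 reads across its start codon (4.82, 3.40 to 6.99). PARP4, the vault-associated member, had 81 over 134 at most among peaks with at least 20 reads (0.604, 0.453 to 0.802). PARP10, also a mono-ADP-ribosyltransferase, had 77 over 36 (2.14, 1.42 to 3.27), PARP9 had 13 over 13, and PARP6, PARP11, PARP12, PARP14, PARP15 and PARP16 had no listed peak. Of the remaining RAD symbols, the helicase gene RAD54L2 had 5 peaks with 75 over 38 reads at most (1.97, 1.32 to 3.0), and RAD21, a cohesin subunit, RAD21L1 and the readthrough gene RAD51L3-RFFL had none.

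The position of a peak separated high from low ratios in these genes. By the annotated region at the midpoint, the 23 5′ UTR peaks had a median log2 ratio of 2.04 and 16 were above input, and the 193 coding peaks had a median of -1.43 with 48 above input. The 18 3′ UTR peaks lay between, with a median of 0.00 and 9 above input. Over all listed peaks the medians were 1.22, -0.87 and -1.06. The share above input was 69.6% for 5′ UTR peaks of members against 69.3% of all 5′ UTR peaks, so it was near the background. It was 24.9% against 36.2% for coding peaks and 50% against 34.0% for 3′ UTR peaks. The authors' own region column equalled the region at the midpoint in 80.9% of member peaks. It gave 43 5′ UTR peaks with a median of 1.00 and 161 coding peaks with a median of -1.63. Its 32 3′ UTR peaks had a median of -0.76, so the 3′ UTR median of members depended on the region label used. The 50% share of 3′ UTR peaks above input rests on 18 peaks by the midpoint label, and no interval was given for it.

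Peaks that began in exon 1 were above input in 28 of 46 cases, with a median log2 ratio of 0.79, and placed peaks past exon 1 in 45 of 188, with a median of -1.62. These shares were 60.9% and 23.9%, against 64.7% and 32.0% in the whole table, where the medians were 0.96 and -1.15. Of 20 member genes with peaks of both kinds, 15 had their highest ratio in exon 1, or 75.0%, against 73.0% of 3005 genes in the whole table. The exon 1 pattern was thus near the background. Of 28 member peaks with a midpoint within 200 nt of the stop codon, 10 were above input, or 35.7% against 38.3% over all listed peaks, with a median of -0.63 against -0.77. Those peaks made up 12.0% of placed member peaks and 11.4% of all placed peaks.

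Coding peaks in long exons had higher ratios than those in short exons. In exons of up to 100 nt 4 of 25 member peaks were above input (median log2 ratio -2.71), in those over 100 and up to 150 nt 9 of 64 (-1.60), in those up to 200 nt 10 of 44 (-2.04), in those up to 400 nt 12 of 29 (-0.39) and in longer exons 13 of 31 (-0.24). Over all listed coding peaks the shares above input in these classes were 22.6%, 28.1%, 29.8%, 41.9% and 55.6%. Their medians rose from -1.64 in the shortest class to 0.35 in the longest. The whole table thus rose at each step. The members did not: their share fell from the first class to the second, and their median from the second to the third. Peaks that crossed no exon junction were above input in 14 of 31 cases (median -0.26), those across 1 junction in 29 of 129 (-1.60) and those across more in 5 of 33 (-2.18). Over all coding peaks the shares were 59.6%, 31.1% and 23.5%, in the same order. Several peaks of 1 gene share its exons and level, so these are descriptions of the listed peaks.

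**Figure D4:**
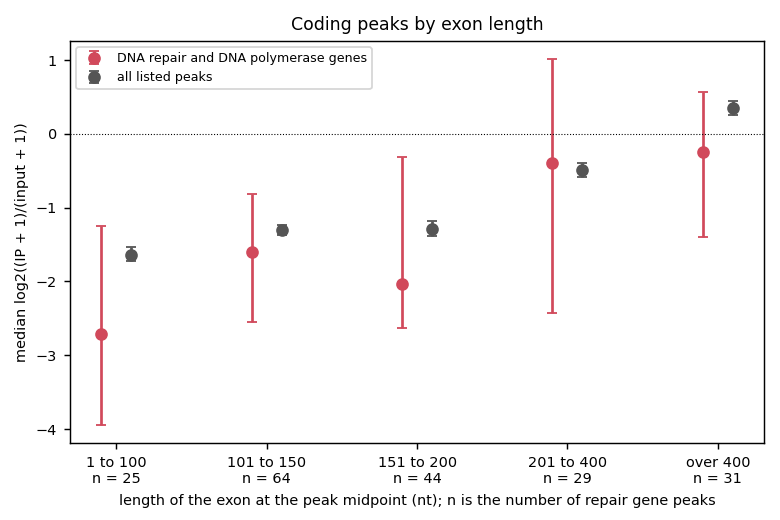
Median log2((IP + 1)/(input + 1)) of coding peaks by the length in nt of the exon at the peak midpoint, for DNA repair and DNA polymerase genes and for all listed peaks; bars are 95% order-statistic intervals over peaks. The member medians lie near -2 in the classes up to 200 nt and near 0 above that, with wide bars, and the longest class reached -0.24 against 0.35 over all peaks.

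GGAC on the transcribed strand occurred in 54 of 73 placed member peaks with more IP than input reads, or 74.0%, and in 94 of the other 161, or 58.4%. Over all placed peaks the shares were 71.8% and 57.8%. Per 100 nt the member peaks held 0.588 and 0.475 of these motifs, against 0.638 and 0.470 over all listed peaks. The density of DRACH went the other way, with 1.62 per 100 nt in member peaks above input and 1.97 in the others. Over all listed peaks these densities were 1.70 and 1.96. Peaks above input also had a higher GC content, with medians of 61.0% and 53.0%, and lay in longer exons, with medians of 255 and 164 nt, and the part of these in the motif share was not tested.

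Some of the reads counted for members may belong to neighbours. In 16 genes, 33 peaks overlapped exons of another protein-coding gene, 16 of them on the opposite strand, and 15 of the 33 were above input. Besides FANCA, MSH3 and MSH5, these include 2 RAD51D peaks shared with the readthrough gene RAD51L3-RFFL, both POLA2 peaks over AP000944.2 and the RAD17 peak over AK6 and TAF9. POLE4, FANCG, ERCC1, RAD23B, XRCC5, XRCC6, POLE and PARP8 had no such overlap. Without the 33 peaks, a choice made after seeing the data, 29.6% of the member peaks were above input.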

How the data were processed

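Per the file headers, the single deposited table gave each peak's gene symbol, position, region, read counts of input and IP, p-value, FDR and window score. The counts were deposited as whole numbers with no replicate number and were used as the authors' pooled counts of 2 input and 2 IP libraries. The authors' p-value and FDR were not used as a test, since the deposited FDR lay below the p-value in 19.8% of peaks. The authors' window score, whose formula is not given, served only as an alternative. The submitters' processing notes name HISAT2, HOMER and GRCh38/hg38. Not given in the sources used here were the peak caller, its thresholds and any use of strand in counting. TruSeq Stranded mRNA libraries were made, per the labels' protocols.

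Of 27855 entries 177 repeats were removed. The measure was log2((IP + 1)/(input + 1)) with a pseudocount of 1, and ratios in the text are IP over input, with exact Clopper-Pearson intervals at the 95% level. Where input had 0 reads, IP over a floor of 3 counts was given, which lies above the lower end of the exact interval. Peaks were placed on GENCODE release 29 transcripts when both ends lay in exons and the spliced length was a multiple of 10 nt, which placed 234 of 236 member peaks and 97.3% of all. Exon numbers depend on the transcript chosen. The calculation was tested on simulated data. Python 3.11.15, pandas 2.3.3, numpy 2.4.6, scipy 1.17.1 and matplotlib 3.10.9 were used.

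The members, role groups and lists were chosen with earlier results of these data known. Genes were named by rule: in each role group those with the highest and the lowest highest ratio in a peak of at least 20 reads, the 5 with most peaks, the 10 highest and 5 lowest by ratio, and genes without a peak; other genes in the text were added after their values were seen. Lists were described by counts and medians beside those of the whole table, with no test. The alternatives were transcripts of at least median length, another pseudocount, stricter read and FDR limits, merged peaks, 1 value per gene, the authors' score and the region at the midpoint. Some members are not reported by name here, nor drawn by name in the figures, but are included in all counts and medians.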

Additional observations from a re-analysis of the deposited data

How the results depend on the processing

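Of 23 other settings, 18 kept the value within its interval or, for counts, within 1.5 times. With 1 value per gene the median log2 ratio was -0.27 in place of -0.87. Among genes with transcripts of at least median length 60.9% of the members had a peak in place of 56.7%. The median log2 ratio of 5′ UTR peaks exceeded that of coding peaks by 2.63 by reads and by 0.52 by the authors' score on a log2 scale, over 230 peaks with a finite score. The region at the midpoint gave 9.83% 5′ UTR peaks where the authors' column gave 18.2%. Genes with a peak at or over the 4-fold mark of IP over input numbered 20, but 12 with at least 50 reads in the peak. They numbered 4 when the lower interval end had to be at least 4, which asks for a ratio further above 4. The cause of these shifts was not tested. Without peaks over another gene, a setting chosen after seeing the data, 16 genes were left in that class. Depth limits the ratios of peaks with few reads, as in BRCA2, MLH3 and RAD50, which had no peak with at least 20 reads. No paired analysis was possible because the count columns carry no replicate number, and leaving out a replicate was not possible for the same reason.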

Other observations

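Among 119 further repair genes outside the symbol series, such as the clamp loader subunits, glycosylases and helicases of these pathways, 73 had a listed peak (61.3%). Of their 295 peaks 97 were above input (32.9%), and their median log2 ratio was -1.06. Beside these, 36.1% of all protein-coding genes had a listed peak, 40.5% of all listed peaks were above input and their median was -0.63. The 119 genes were not compared with genes of like transcript length. The highest ratios among peaks with at least 20 reads were those of XPC, the damage sensor that binds RAD23B, with 177 IP reads over 7 of input in the 5′ UTR (25.3, 12.0 to 63.8), of the glycosylase NEIL2 with 24 over 1 (24.0, 3.91 to 987), and of SLX4, the nuclease scaffold, with 216 over 13 in its coding sequence (16.6, 9.51 to 31.7).

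RAD51B, a gene of homologous recombination, had only 2 overlapping coding peaks, with 2067 over 2127 reads (0.972, 0.914 to 1.03) and 2088 over 2293 (0.911, 0.858 to 0.967). Their input held 12.5 and 12.1 reads per nt of spliced peak, the highest of all members, where the median member peak had 0.452 and the highest outside RAD51B had 11.1. The cause was not tested.

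In the strand column of the table, 127 of the 236 member peaks (53.8%) lay on the plus strand, against 65.2% of all listed peaks. All peaks of 1 gene share its strand, and FANCA, ERCC2 and PRKDC, with 18, 14 and 14 peaks, lie on the minus strand. Peaks are thus not separate cases in this count.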
